A study of Homo sapiens with 6 samples.

Results

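The mRNAs of 10 genes of extracellular and cell-surface proteolysis were examined: the matrix metalloproteases MMP1, MMP7, MMP14 and MMP15, the inhibitors TIMP1, TIMP2 and TIMP3, and the sheddases ADAM9, ADAM10 and ADAM17. They were taken by symbol from a table of 27328 loci, and all 10 were present, each under 1 Ensembl identifier. The 6 libraries came from SACC-83, an established line of salivary adenoid cystic carcinoma cells. 3 libraries were from cells with a vector control, whose genotype label reads WT, and 3 from cells overexpressing a circular RNA of MYBL1 (circMYBL1). The genotype labels of the overexpression libraries read circMYBL1, circMYBL2 and circMYBL3 for replicates 1, 2 and 3, while the titles mark all 3 as overexpression and the design text names circMYBL1 only, so they were kept as replicates. The sources used here do not give the vector, how it was delivered, or whether the cells were 1 clone or a pool. No label ties the libraries of a group to separate cultures, so the p-values reflect the scatter of these 6 libraries alone, and that scatter may be technical.

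Matrix metalloproteases are zinc enzymes made as inactive proenzymes; MMP1 and MMP7 are secreted, and MMP14 and MMP15 are anchored in the plasma membrane. TIMPs bind the active site of these enzymes and block it, and TIMP2 in complex with MMP14 also helps to activate pro-MMP2. ADAMs are membrane-anchored relatives that release the outer part of other membrane proteins, among them growth factor precursors, Notch receptors and CD44. Carcinoma cells are known to use these enzymes to degrade collagen and basement membrane and to free growth factors.

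Levels are deposited FPKM (fragments per length of gene, scaled to the library total), a scale per length on which genes can be set beside each other, and 3 values in a row always follow the order of replicates 1, 2 and 3. Read depth cannot be recovered from these values, so no counting error is given. Fold changes were taken between means of log2(FPKM + 1), a scale that shrinks the change of a gene with low FPKM. In bulk libraries a lower level from fewer cells and one from less RNA per cell cannot be told apart. MYBL1, the host gene of the circle, was at 9.04, 7.15 and 10.3 FPKM with vector and at 359, 44.0 and 2025 FPKM with overexpression. The libraries numbered 2 stood apart from the other 4 in both groups, and 5605 of 12064 tested genes (46.5%) differed by replicate number (limma, adjusted p under 0.05). Without vector replicate 2 that count was 3663. What a replicate number marks is not stated. Of the lineage markers, KRT8, KRT18, KRT7 and EPCAM were present in every library at 76.3 FPKM or more, CDH1 at 8.61 to 21.3 FPKM and KRT19 at 1.10 FPKM or less, while all 6 acinar markers stayed at 0.254 FPKM or less, with AQP5, AMY1A, STATH and PIP at 0 throughout. The leukocyte marker PTPRC was at 0 in every library, and 5 of 6 fibroblast, 4 of 5 endothelial and 5 of 6 leukocyte markers stayed under 0.5 FPKM; the exceptions were COL1A1, PECAM1 and CD68.

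To show the DNA in front of members that behaved differently between libraries, the bases upstream of the start site are printed for MMP7, MMP14 and TIMP3, whose levels were highest in the replicate 2 libraries of both groups, and for TIMP1, which was not called for replicate number. The sequences come from a set of RefSeq promoters (GRCh38.p14) that held 7 of the 10 members. MMP1, TIMP2 and ADAM9 were not in that set, so their promoters were not searched. Each sequence runs 5′ to 3′ on the gene's strand from 250 bases before the start up to the first base of an annotated exon. Capitals mark matches on either strand to TGANTCA (the AP-1 site), GGGCGG (the GC box) and TATAAA (the TATA box); no matches overlapped.
MMP7 (chr11:102530754-102530997, minus strand): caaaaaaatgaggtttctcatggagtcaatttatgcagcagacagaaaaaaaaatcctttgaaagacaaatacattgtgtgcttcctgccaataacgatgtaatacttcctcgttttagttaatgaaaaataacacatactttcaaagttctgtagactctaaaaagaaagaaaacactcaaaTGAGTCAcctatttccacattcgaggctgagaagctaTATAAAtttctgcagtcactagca
MMP14 (chr14:22836335-22836556, plus strand): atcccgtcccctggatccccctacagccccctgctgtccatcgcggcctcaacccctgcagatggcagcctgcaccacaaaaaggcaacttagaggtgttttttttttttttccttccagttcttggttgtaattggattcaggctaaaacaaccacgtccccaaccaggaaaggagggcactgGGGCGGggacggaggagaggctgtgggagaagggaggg
TIMP3 (chr22:32801455-32801700, plus strand): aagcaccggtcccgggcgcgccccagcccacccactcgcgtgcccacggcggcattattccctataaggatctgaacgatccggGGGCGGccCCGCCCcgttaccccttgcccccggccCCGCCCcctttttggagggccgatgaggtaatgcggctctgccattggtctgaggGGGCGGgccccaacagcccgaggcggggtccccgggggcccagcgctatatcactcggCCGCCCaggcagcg
TIMP1 (chrX:47582186-47582312, plus strand): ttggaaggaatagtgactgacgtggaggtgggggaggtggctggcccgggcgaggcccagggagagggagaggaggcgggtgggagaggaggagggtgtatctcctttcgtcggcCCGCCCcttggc
In the full windows of 250 bases, MMP7 held the only AP-1 match among the 7 members, at position -67, and the only TATA box, at -30. Of 35116 RefSeq promoters of this length, 6.57% held the AP-1 letters, 10.7% the TATA letters and 42.6% the GC box. The windows of MMP14, MMP15, TIMP1, TIMP3, ADAM10 and ADAM17 held 1, 5, 2, 5, 1 and 3 GC boxes; 1 of the 2 in TIMP1 lies beyond the printed stretch. These windows are not all upstream DNA: annotated exons cover 250 of the 250 bases for ADAM10, 188 for MMP15 and 123 for TIMP1, and 4 to 28 for the other 4 members. The GC content was 33.6% for MMP7 and 56.8% to 75.6% for the other 6, against a median of 58% over all promoters. Such matches describe the letters and do not show binding.

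TIMP1 and the membrane-anchored protease MMP14 were the most abundant members, and MMP7 was close to absent outside the replicate 2 libraries. Over the 6 libraries the mean level fell in the order TIMP1 (122.5 FPKM), MMP14 (85.4), TIMP2 (63.6), ADAM9 (58.9), ADAM17 (18.3), TIMP3 (18.2), ADAM10 (17.1), MMP1 (7.95), MMP15 (4.14) and MMP7 (1.13). Several neighbours in that order were not set apart by their spread: TIMP1 exceeded MMP14 in 5 of 6 libraries, TIMP2 exceeded ADAM9 in 4, ADAM17 exceeded TIMP3 in 4, and TIMP3 exceeded ADAM10 in only 2. MMP14 lay above TIMP2, ADAM9 above ADAM17, ADAM10 above MMP1, MMP1 above MMP15 and MMP15 above MMP7 in 6 of 6. A single protease made up most of the MMP mRNA: MMP14 held 82.2% to 89.7% of the summed FPKM of the 4 MMP members in each library.

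**Figure D1:**
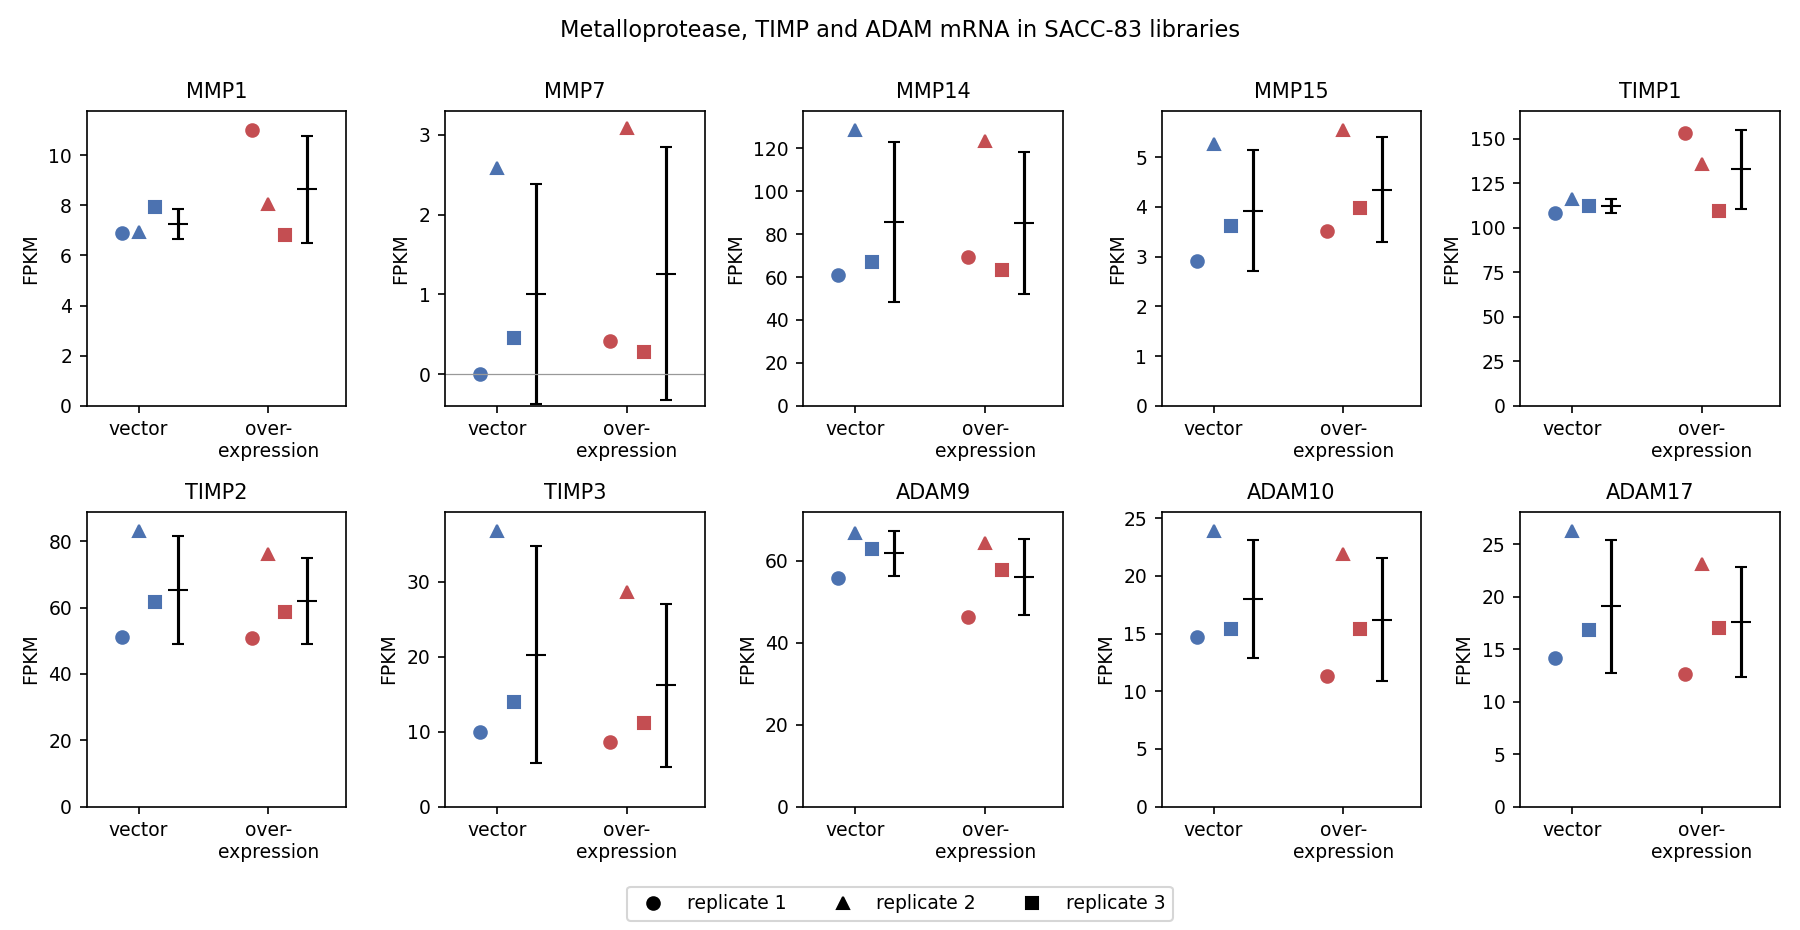
FPKM (vertical axis, linear) of each of the 10 genes in the 3 vector and 3 overexpression libraries, with a symbol for each replicate number; the black bar is the mean ± SD over 3 libraries. The triangles of replicate 2 lie above the other libraries of their group, in both groups, for MMP7, MMP14, MMP15, TIMP2, TIMP3, ADAM9, ADAM10 and ADAM17, while the groups overlap for all 10 genes.

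Neither secreted protease was set apart by overexpression. MMP1, the interstitial collagenase that opens fibrillar collagen (ENSG00000196611, chromosome 11, 102789920 to 102798160, minus strand), was at 6.90, 6.92 and 7.95 FPKM with vector and at 11.01, 8.07 and 6.83 FPKM with overexpression. Overexpression replicate 1 was the highest library and overexpression replicate 3 the lowest, so the vector libraries lay inside the range of the other group. The group difference was 0.20 on the log2 scale (95% interval -0.25 to 0.65, SE 0.19, limma, adjusted p = 1.0), and 0.03 without overexpression replicate 1. MMP7, or matrilysin, a small protease that also cuts cell-surface proteins (ENSG00000137673, chromosome 11, 102520508 to 102530753, minus strand), was listed at 0, 2.58 and 0.449 FPKM in the vector libraries and at 0.413, 3.09 and 0.278 FPKM in the overexpression libraries. Only the libraries numbered 2 exceeded 1 FPKM, so MMP7 did not pass the filter on low values (1 FPKM in at least 3 libraries) and was not tested.

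The membrane-type proteases differed by replicate number and were not called between groups. MMP14, or MT1-MMP, which cleaves collagen at the cell surface and activates pro-MMP2 (ENSG00000157227, chromosome 14, 22836557 to 22849027, plus strand), read 61.1, 128.6 and 67.2 FPKM in vector libraries and 69.1, 123 and 63.4 FPKM in overexpression libraries. The group means were 85.6 ± 37.3 and 85.3 ± 33.0 FPKM (SD, n = 3 each), and both replicate 2 libraries were nearly double the others of their group, at 2.005 and 1.86 times the mean of replicates 1 and 3. The log2 fold change between groups was 0.01 (95% interval -0.84 to 0.86), and it was slightly negative under TPM, TMM and quantile scaling (-0.01 to -0.03), so MMP14 has no direction. MMP15, or MT2-MMP (ENSG00000102996, chromosome 16, 58025566 to 58046901, plus strand), read 2.91, 5.27 and 3.61 FPKM against 3.52, 5.55 and 3.98 FPKM. It was higher in the overexpression library of 3 of 3 same-numbered pairs, by 1.21, 1.05 and 1.10 times, as were 16.5% of all tested genes. The log2 fold change of MMP15 was 0.13 (SE 0.24, limma, adjusted p = 1.0; with replicate number as a block SE 0.11, adjusted p = 0.814).

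None of the 3 inhibitors was called between groups; on average TIMP1 was higher, and TIMP2 and TIMP3 lower, in the overexpression libraries. TIMP1, which inhibits most soluble MMPs and membrane-type ones poorly (ENSG00000102265, chromosome X, 47582313 to 47586789, plus strand), read 108, 116 and 112 FPKM in vector libraries and 153, 136 and 109 FPKM in overexpression libraries. The vector libraries lay close together (112 ± 3.86 FPKM), and overexpression replicates 1 and 2 were above all of them while replicate 3 fell among them. Its log2 fold change was 0.23 (95% interval -0.15 to 0.61, limma, adjusted p = 1.0; with the block 0.717), and 0.12 without overexpression replicate 1. TIMP1 and MMP1 shared this order of the overexpression libraries, and the MMP1 to TIMP1 ratio was 0.0647 ± 0.00574 in vector and 0.0646 ± 0.00641 in overexpression libraries.

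TIMP2, the inhibitor that bridges MMP14 and pro-MMP2 (ENSG00000035862, chromosome 17, 78852977 to 78925387, minus strand), read 51.0, 83.1 and 61.7 FPKM against 50.9, 76.1 and 58.8 FPKM. It was lower in 3 of 3 pairs, at ratios of 0.997, 0.916 and 0.954, and the first of these is a difference of less than 1%. TIMP3, the matrix-bound TIMP that also inhibits ADAM17 and ADAM10 (ENSG00000100234, chromosome 22, 32801701 to 32863043, plus strand), read 9.97, 36.8 and 14.0 FPKM in vector libraries and 8.63, 28.7 and 11.2 FPKM in overexpression libraries. The replicate 2 libraries held about 3 times the TIMP3 of the others, so the group ranges overlapped widely even though each overexpression library was below its same-numbered vector library, at 0.865, 0.780 and 0.800 times its level. By group alone, TIMP3 gave a log2 fold change of -0.28 (95% interval -1.62 to 1.06, limma, adjusted p = 1.0). With the block the interval was -0.49 to -0.07 and the adjusted p by limma 0.571. TIMP3 was the 1 member of 9 with an unadjusted p under 0.05 in that fit, where 7.19% of all tested genes had one. Within replicates 1 and 3 alone the value was -0.24 (block, adjusted p = 0.912). The pair ratios of TIMP3 stayed between 0.740 and 0.866 under FPKM, TPM, TMM and quantile scaling. TIMP3 lies inside SYN3 and TIMP1 inside SYN1, each on the opposite strand and with no shared exon bases, and these hosts stayed at 0.106 and 0.132 FPKM or less. TIMP2 shares 198 bases of exon with CEP295NL on its own strand, which was at 0.508 to 1.91 FPKM.

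The sheddases were slightly lower on average in the overexpression libraries, and none passed. ADAM9, which cleaves growth factor precursors and adhesion proteins (ENSG00000168615, chromosome 8, 38996869 to 39105144, plus strand), read 55.9, 66.6 and 62.9 FPKM against 46.2, 64.3 and 57.6 FPKM, lower in 3 of 3 pairs, with overexpression replicate 1 the lowest library. Its log2 fold change was -0.15 (95% interval -0.54 to 0.24, limma, adjusted p = 1.0), and -0.02 without overexpression replicate 1. ADAM10, the main sheddase of Notch receptors, E-cadherin and CD44 (ENSG00000137845, chromosome 15, 58588807 to 58749978, minus strand), read 14.7, 23.9 and 15.4 FPKM against 11.4, 21.9 and 15.4 FPKM. In the third pair the ratio was 0.998, and under TPM, TMM and quantile scaling it turned to 1.01 to 1.02. ADAM17, or TACE, which releases TNF and EGF receptor ligands (ENSG00000151694, chromosome 2, 9488486 to 9556732, minus strand), read 14.2, 26.3 and 16.8 FPKM against 12.6, 23.1 and 17.0 FPKM. ADAM17 shares 1323 bases of exon with IAH1 on the other strand and the use of strand in counting is not stated, so its value is uncertain; IAH1 itself read 5.72 to 8.40 FPKM, and the sum of both was 26.2 ± 6.12 against 23.9 ± 4.81 FPKM. The log2 fold changes of ADAM10 and ADAM17 were -0.16 (SE 0.28) and -0.11 (SE 0.29), both with limma at an adjusted p of 1.0.

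Between groups, limma called 0 of the 9 tested members without the block and 0 with it, where it called 0 (0%) and 12 (0.0995%) of 12064 genes. The latter count was 148 without replicate 2 of both groups, with 0 members among them. MYBL1 itself, at a log2 fold change of 5.04, was not called without the block and was called with it (limma, adjusted p = 0.0226). The fit without the block thus missed even a change of that size, and its missing calls do not show that levels were equal. At an unadjusted p under 0.05 there were 0 members without the block (0.539% of all tested genes) and 1 with it, TIMP3. The ranges of the groups overlapped for all 10 members, and 3.34% of all tested genes had ranges that did not. Of the 9 tested members 4 were higher and 5 lower on average, with a median log2 fold change of -0.07 against 0.03 over all tested genes. TIMP2, TIMP3, ADAM9 and ADAM10 were lower in 3 of 3 pairs, as were 11.9% of all tested genes, but ADAM10 only with the deposited FPKM and not under TPM, TMM or quantile scaling. Without the block, leaving out 1 library changed the sign of 6 members, MMP14, MMP15, TIMP2, TIMP3, ADAM10 and ADAM17; TIMP3 ran from -0.76 without overexpression replicate 2 to 0.24 without vector replicate 2. The block intervals reached no further than -0.49 to 0.52 for any member.

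**Figure D2:**
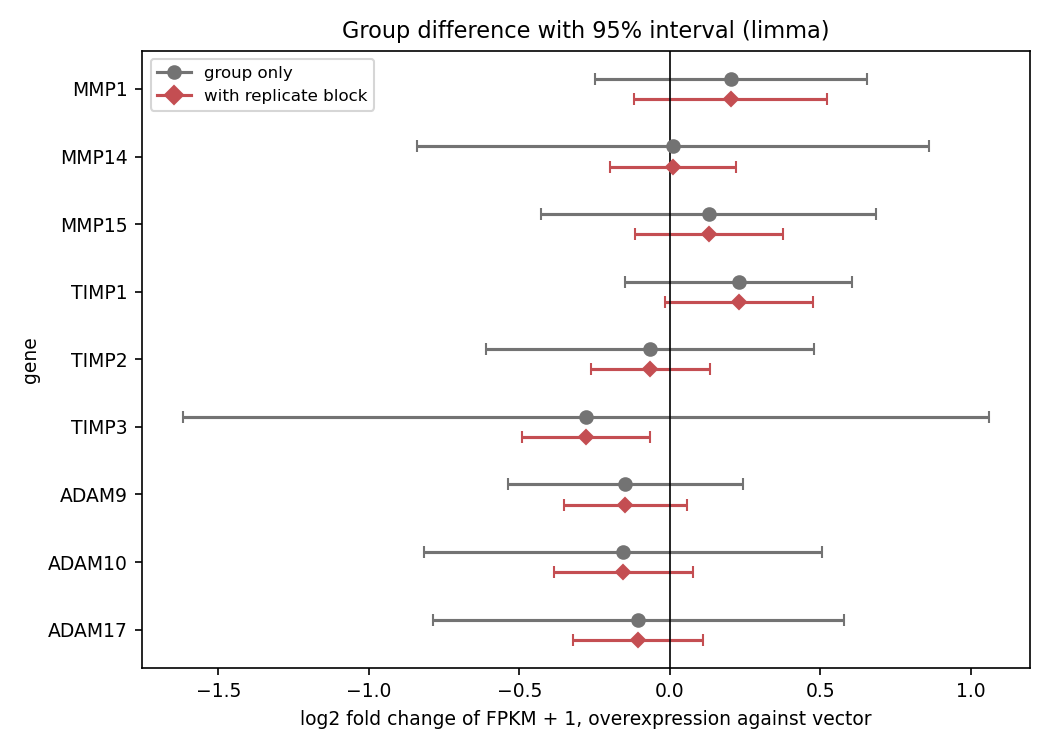
Difference in log2(FPKM + 1) between overexpression and vector libraries (horizontal axis) for the 9 tested members, with 95% intervals from limma without (circles) and with (diamonds) replicate number as a block. All intervals include 0 except that of TIMP3 with the block, which ends at -0.07; its adjusted p was 0.571.

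By replicate number most members differed, all that were called in the same direction. Replicate number was called for 6 of the 9 tested members, MMP14, MMP15, TIMP2, TIMP3, ADAM10 and ADAM17, all higher in replicate 2, where 46.5% of all tested genes were called and 27.2% were called and higher in replicate 2. Each adjusted p given with a replicate 2 difference is from the F test over all replicate numbers and does not test that difference. The contrast of replicate 2 with replicates 1 and 3 was chosen with earlier results of these data known. It was largest for TIMP3 (log2 difference 1.51, SE 0.10, limma, adjusted p = 2.1e-05 for replicate number) and then MMP14 (0.94, SE 0.10, adjusted p = 0.000244). ADAM17 (0.68) and ADAM10 (0.66) were close to each other, as were MMP15 and TIMP2 (both 0.51). The excess recurred in both groups, at 3.07 times the mean of replicates 1 and 3 for TIMP3 in vector and 2.89 times in overexpression libraries, and at 1.70 and 1.56 times for ADAM17. MMP7 was highest in replicate 2 of both groups but lies near 0 in the other libraries, so a ratio of its levels is not given. In a fit with every locus kept, its replicate 2 difference was 1.59 on the log2(FPKM + 1) scale and was not called (limma, adjusted p = 0.107). That fit called 0 of all genes for replicate number, so the missing call does not set MMP7 apart from the called members.

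TIMP1 (0.07, 95% interval -0.19 to 0.33) and MMP1 (-0.09, -0.43 to 0.25) were not called for replicate number, with limma adjusted p of 0.349 and 0.493, and TIMP1 turned to -0.02 under TMM scaling. ADAM9 lay between. Its interval left out 0 (0.24, 95% interval 0.02 to 0.46), but the F test of replicate number did not pass (limma, adjusted p = 0.0567). That test passed under TPM (0.32, adjusted p = 0.0184) and quantile scaling (0.37, adjusted p = 0.00826). The call of MMP15 ended without vector replicate 2 (adjusted p = 0.149), without overexpression replicate 2 (0.0576) and under quantile scaling (0.29, adjusted p = 0.137), and with every locus kept in the fit none of the 6 passed (limma, adjusted p = 0.0781 to 0.120), and limma then called 0 of all genes for replicate number. Of 6 markers of basal and myoepithelial cells, the 4 tested, KRT5, KRT14, TP63 and ACTA2, were all called higher in replicate 2. Over all tested genes 46.5% were called and 27.2% were called and higher in replicate 2. The other 2 markers, CNN1 and MYH11, stayed at 0.254 and 0.237 FPKM or less and were not tested. The summed level of the 6, most of it KRT5, ranged from 151 to 494 FPKM in vector and 131 to 417.5 FPKM in overexpression libraries. Among them KRT5, a basal keratin, read 119.9, 412 and 142 FPKM in the vector libraries and 94.9, 347 and 104 FPKM in the overexpression libraries. The endothelial marker PECAM1 reached 1.27 and 0.985 FPKM in the replicate 2 libraries and stayed at 0.0745 FPKM or less in the others. Of the other endothelial markers, CDH5 and VWF were highest in replicate 2 of both groups but at 0.374 FPKM or less. TEK was not highest there, and KDR was at 0 throughout. Of the 5 tested epithelial markers 2 were called for replicate number, CDH1 higher (0.85) and KRT7 lower (-0.92) in replicate 2. KRT5 and PECAM1 were picked out with their values in view, and the part of these markers in the result was not tested.

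**Figure D3:**
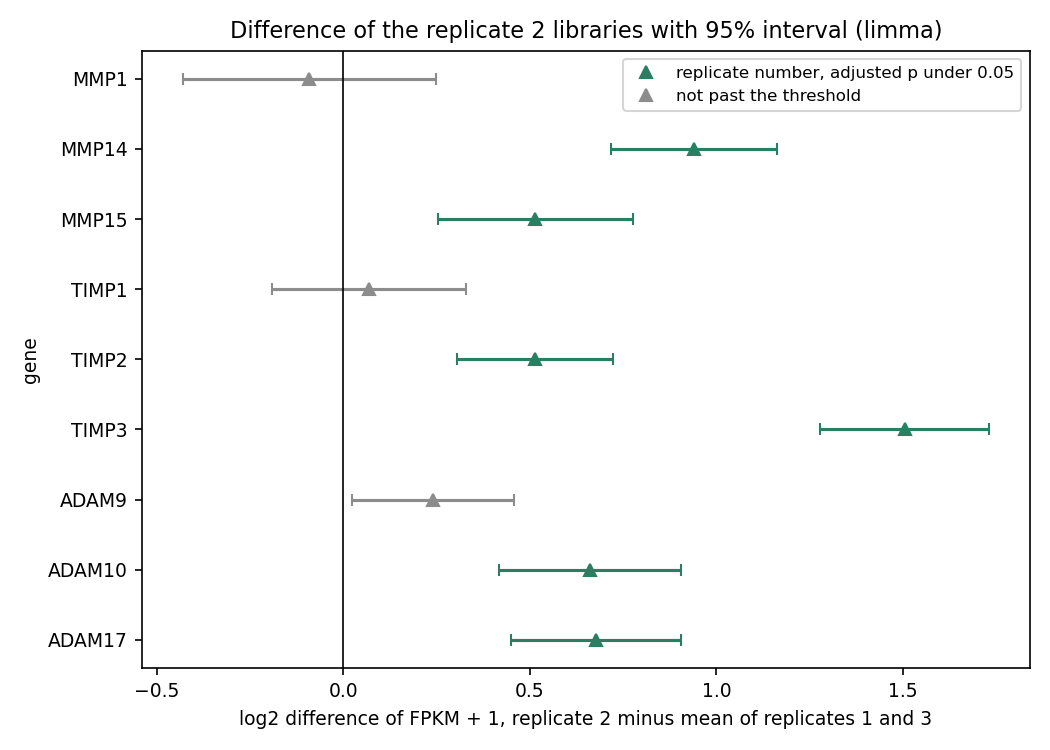
Log2 difference of FPKM + 1 between the replicate 2 libraries and the mean of replicates 1 and 3 (horizontal axis), averaged over both groups, with 95% intervals from limma, for the 9 tested members; green marks those called for replicate number. TIMP3 at 1.51 and MMP14 at 0.94 lie farthest from 0, and MMP1 and TIMP1 include 0.

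Ratios between proteases and inhibitors within a library were also read by replicate number. MMP14 to TIMP2, the pair that forms the pro-MMP2 activation complex, was 1.20, 1.55 and 1.09 in vector replicates 1, 2 and 3 and 1.36, 1.62 and 1.08 in the overexpression ones, so both groups had their highest ratio in replicate 2. MMP14 to TIMP3 ran the other way, at 6.13, 3.50 and 4.80 against 8.01, 4.30 and 5.67, lowest in replicate 2 and higher in the overexpression library of each pair. ADAM17 to TIMP3 was 1.42, 0.715 and 1.20 against 1.46, 0.807 and 1.52. TIMP1 made up 64.0%, 49.2% and 59.7% of the summed TIMP1, TIMP2 and TIMP3 mRNA in vector libraries and 72.1%, 56.4% and 61.0% in overexpression libraries. For all 4 quantities the groups overlapped, and as values over the members they were not tested. The MMP1 to TIMP1 ratio varied less, from 0.0595 to 0.0718 over the 6 libraries, and was also lowest in replicate 2 of each group.

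**Figure D4:**
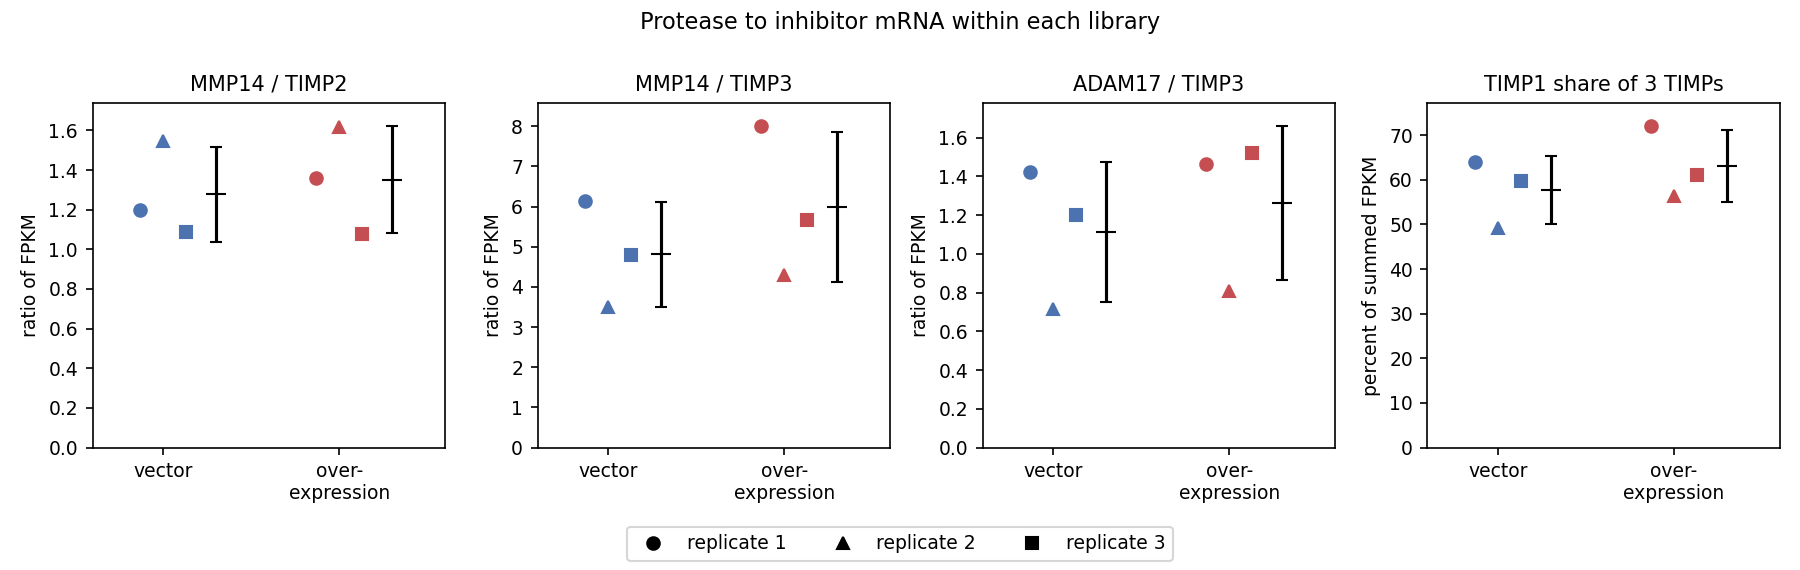
Ratios of FPKM within each library for MMP14 to TIMP2, MMP14 to TIMP3 and ADAM17 to TIMP3, and the percent of the summed FPKM of 3 TIMPs that is TIMP1, by group; symbols give the replicate number and black bars the mean ± SD of 3 libraries. Replicate 2 is highest for MMP14 to TIMP2 (1.55 and 1.62) and lowest in the other 3 panels.

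Most of the other MMP genes were at low levels. Of 19 further MMP genes, 10 stayed under 0.5 FPKM in every library and 5 were tested, with 0 called between groups in either fit (limma; unadjusted p under 0.05 for 0 without and 1 with the block). Replicate number was called for 3 of the 5, 2 of them higher in replicate 2, beside 46.5% and 27.2% of all tested genes. The other, MMP23B, named with its values in view, was lower (-0.43, limma, adjusted p = 0.0442). MMP23B was also the 1 with an unadjusted p under 0.05 with the block, where 7.19% of all tested genes had one. MMP28, or epilysin, had the highest mean of the 5, at 6.49, 63.7 and 14.0 FPKM in vector and 6.96, 54.1 and 11.2 FPKM in overexpression libraries. Its replicate 2 difference was 2.55 on the log2 scale (limma, adjusted p = 2.62e-06). MMP2, the gelatinase that MMP14 activates, read 10.6 ± 1.64 against 9.83 ± 1.95 FPKM. In replicate 1 of both groups MMP2 was above MMP28, at 9.54 FPKM with vector and 9.73 FPKM with overexpression. Of 34 further ADAM and ADAMTS genes 22 stayed under 0.5 FPKM and 7 were tested, with 0 called between groups and 0 at an unadjusted p under 0.05 in either fit (limma). By replicate number 5 of the 7 were called (46.5% of all tested genes). 4 of these, ADAM12, ADAMTS1, ADAMTS6 and ADAMTS16, were lower in replicate 2 (log2 differences -0.56 to -1.60), against the direction of the called members. ADAM8 was also called, but the interval of its replicate 2 difference included 0 (0.25, interval -0.04 to 0.54). It read 7.55, 12.4 and 13.4 FPKM in vector and 11.3, 14.1 and 12.7 FPKM in overexpression libraries. Replicate 2 was thus its highest library in the overexpression group only. The median replicate 2 difference of the 7 was -0.56, and that of the 9 tested members 0.51. ADAM15 read 52.6 ± 8.75 against 57.0 ± 9.12 FPKM, close to ADAM9, and ADAM8 read 11.1 ± 3.12 against 12.7 ± 1.41 FPKM.

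**Figure D5:**
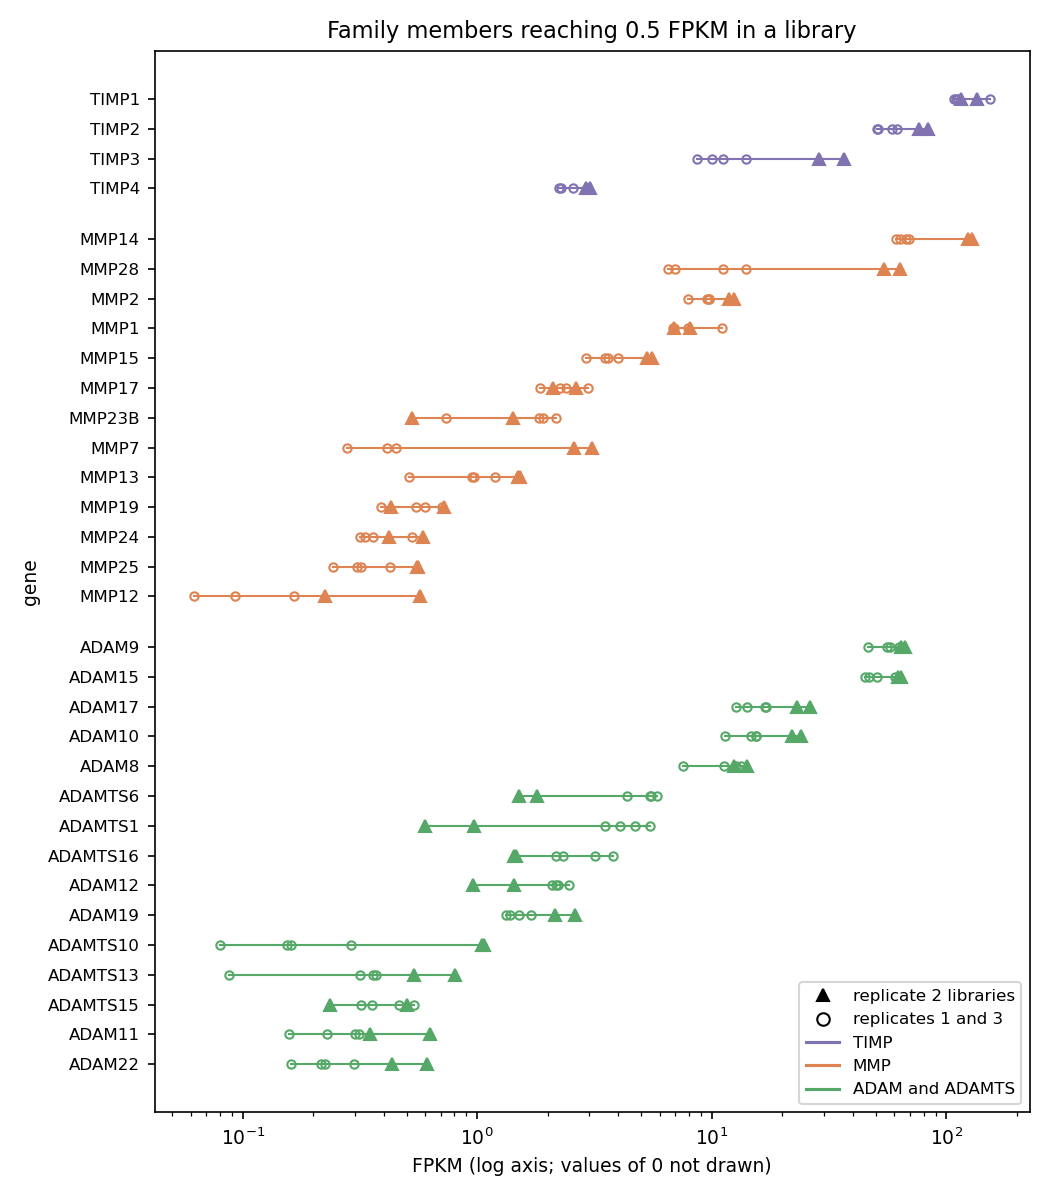
FPKM (horizontal log axis) in the 6 libraries for every TIMP, MMP, ADAM and ADAMTS gene examined that reached 0.5 FPKM in at least 1 library; colour marks the family, triangles are the replicate 2 libraries, circles the other 4, and the line spans the values above 0. TIMP3, MMP28 and MMP7 show the replicate 2 libraries well to the right, whereas ADAMTS1 and ADAMTS6, picked out from the plot, show them to the left.

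Of 20 partners, activators and further inhibitors 17 were tested, 12 higher and 5 lower on average, with 0 called between groups in either fit and 0 at an unadjusted p under 0.05 (limma). BSG (EMMPRIN), a surface protein that induces MMPs in neighbouring cells, read 313.5 ± 36.0 against 345 ± 35.8 FPKM, and SPINT2, a Kunitz inhibitor of serine proteases, 103 ± 26.3 against 111 ± 32.2 FPKM. Replicate number was called for 10 of the 17, 9 of them higher in replicate 2, where 46.5% of all tested genes were called and 27.2% were called and higher. TSPAN15, a tetraspanin that carries ADAM10 to the cell surface, read 5.43, 30.4 and 10.2 FPKM against 6.85, 25.6 and 8.30 FPKM (replicate 2 difference 1.76, limma, adjusted p = 3.72e-05). RHBDF1, one of the iRhoms needed for ADAM17 maturation, read 4.88, 12.7 and 7.93 FPKM against 6.74, 13.3 and 8.17 FPKM (0.84, adjusted p = 0.000663). TSPAN15 and RHBDF1 were chosen from their list with their values in view.

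Of 39 proteins known to be shed, 29 were tested, 19 higher and 10 lower, with 0 called between groups in either fit (limma; unadjusted p under 0.05 for 1 without and 5 with the block, where 0.539% and 7.19% of all tested genes had one). CD44, the hyaluronan receptor of the series title and a substrate of ADAM10 and MMP14, was the 1 without the block, with non-overlapping groups (119.6 ± 5.87 against 154 ± 14.1 FPKM, log2 fold change 0.36, adjusted p = 1.0; with the block 0.445). Among the 29 tested, the groups also did not overlap for EPCAM (79.5 ± 2.98 against 84.7 ± 3.32 FPKM). The same was so for 3.34% of all tested genes. CD44 was not called for replicate number (0.03, limma, adjusted p = 0.739). APP, the amyloid precursor, read 231 ± 47.0 against 227 ± 54.9 FPKM, and SDC4, a heparan sulfate proteoglycan, 193 ± 87.4 against 197 ± 59.1 FPKM. AREG, an EGF receptor ligand released by ADAM17 and named after its values were seen, was at 15.7, 6.22 and 14.7 FPKM in vector and 20.7, 8.55 and 17.1 FPKM in overexpression libraries, lower in replicate 2 (-1.11, limma, adjusted p = 0.000123), where ADAM17 was higher. Replicate number was called for 25 of the 29, with 18 higher and 7 lower in replicate 2, beside the same 46.5% and 27.2% of all tested genes.

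Of 23 matrix substrates 16 were tested, with 0 called between groups in either fit (limma; unadjusted p under 0.05 for 0 without and 3 with the block, where 7.19% of all tested genes had one). Replicate number was called for 11 of the 16, with 8 higher and 3 lower in replicate 2. Over all tested genes 46.5% were called and 27.2% were called and higher in replicate 2. FN1, or fibronectin, read 510.0 ± 30.3 against 522 ± 50.4 FPKM, and LAMB3, a chain of laminin-332, 341 ± 112 against 435 ± 173 FPKM; LAMB3 was lower in replicate 2 (-1.001, limma, adjusted p = 0.000384). Of 18 transcription factors that act on MMP promoters 17 were tested, with 0 called between groups in either fit (limma; unadjusted p under 0.05 for 0 without and 4 with the block, beside 7.19% of all tested genes). The 4, named with their values in view, were JUND, CEBPB, ETV4 and RUNX2, with limma adjusted p of 0.525, 0.521, 0.615 and 0.607 in the block fit. JUND, an AP-1 subunit, was at 14.0, 17.6 and 15.9 FPKM with vector and 20.9, 19.9 and 19.3 FPKM with overexpression, and RUNX2, a runt-domain factor, at 6.78, 7.22 and 8.31 against 4.91, 6.17 and 6.67 FPKM. The groups did not overlap for JUND and RUNX2, as was so for 3.34% of all tested genes, and they overlapped for CEBPB (19.0 ± 6.86 against 27.0 ± 4.34 FPKM) and ETV4 (14.2 ± 3.16 against 17.5 ± 1.54 FPKM). With the block and both libraries numbered 2 left out, which leaves few residual degrees of freedom, CEBPB passed (0.76, limma, adjusted p = 0.000157). That fit called 148 of all genes, against 12 in the block fit of all libraries. The pair left out was the one in which CEBPB changed least, with pair ratios of 2.23, 1.05 and 1.35. By replicate number 9 of the 17 factors were called, with 5 higher and 4 lower in replicate 2. These counts were close to the shares of all tested genes, 46.5% called and 27.2% called and higher. JUNB and FOSL1, both AP-1 subunits, split by replicate number: JUNB read 72.2, 167 and 104 FPKM in vector and 99.1, 154 and 100.1 FPKM in overexpression libraries, higher in replicate 2 (0.78, limma, adjusted p = 0.00186). FOSL1 read 125, 16.1 and 117 FPKM against 150.1, 25.7 and 111 FPKM, lower in replicate 2 (-2.56, adjusted p = 6.69e-06).

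MMP7 and TIMP3 varied most over the 6 libraries (SD of log2(FPKM + 1) 0.844 and 0.813). Among genes with an Ensembl identifier and a mean of at least 5 FPKM, those most like MMP7 were MANBA, SPINT1 and CCHCR1 (Pearson r 0.999, 0.998 and 0.998 over 6 libraries), and 57 of 8258 genes exceeded an r of 0.99. Those most like TIMP3 were F11R, PTGS1 and C22orf23 (r 0.999, 0.998 and 0.998), with 102 of 8257 above 0.99. SPINT1, an inhibitor of membrane serine proteases, read 16.3, 30.4 and 19.8 FPKM in vector and 20.1, 31.9 and 18.5 FPKM in overexpression libraries. F11R, a tight junction protein and itself a shed substrate, read 29.5, 54.3 and 35.9 against 28.4, 49.2 and 31.8 FPKM. All these values come from the same 6 libraries, which include the pair numbered 2 that stands apart, and likeness without that pair was not computed.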

How the data were processed

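Purified mRNA from TRIzol extracts was made into NEBNext Ultra libraries, per the labels' protocols. The submitters' processing notes name HISAT2 and GRCh38; the sources used here do not give the counting tool, annotation, versions or use of strand. The authors deposited FPKM in 1 column per library, summing to 371776 to 408826; no whole-read steps were found in the low values, so depth is unknown. Positions came from GENCODE release 29, which held all 19974 Ensembl identifiers of the table.

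The filter kept the 12064 loci that reached 1 FPKM in 3 or more libraries. The tool limma 3.58.1 (R 4.3.3) was run on log2(FPKM + 1) (moderated by eBayes with trend, 2-sided, Benjamini-Hochberg over all tested genes, threshold 0.05), by group alone, and with replicate number as a block, which also gave the F test of replicate number. The fits were tested on simulated data. Deviations from the group means of libraries with the same number correlated at 0.725, 0.881 and 0.529, all above the limit of 0.1, so the numbers were taken to pair the libraries on these correlations, not on the labels; vector 3 with overexpression 1 (0.412) and vector 1 with overexpression 3 (0.424) also passed it. An exact permutation test of 3 against 3 cannot go below p = 0.1. Named genes were the 10 members, MYBL1, CD44, the 2 most abundant tested genes of each further list, any list gene called, and the 3 genes most like each of the 2 most variable members; others are said to be chosen after their values were seen. The members and lists were chosen with earlier results of these data known. Alternatives were pseudocounts, filters, scalings, no trend, the block and left-out libraries.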

Additional observations from a re-analysis of the deposited data

How the results depend on the processing

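No member was called between groups under any alternative run. The number of all genes called between groups, 0 without the block, was 12 with replicate number as a block, 4 without the filter, and in block fits 14, 148 and 22 without replicates 1, 2 and 3 of both groups; leaving out 1 library gave 0 to 1. In block fits added after seeing the data it was 13 (TMM), 14 (quantile), 10 (pseudocount 0.1), 9 (no trend) and 0 (no filter). Without the filter, replicate number was called for 0 genes and 0 members, and the cause was not tested; leaving out 1 library gave 3663 to 6174 genes and 5 to 7 members. The sign of MMP14 turned to -0.011 (TPM), -0.017 (TMM) and -0.026 (quantile, the last pair alike with the block), that of FN1 to -0.010 (quantile, with and without the block), and the replicate 2 difference of TIMP1 to -0.023 (TMM). In block fits, signs also turned without replicate 1 (MMP14 -0.072, ADAM15 -0.039, SDC4 -0.055, JUNB -0.084), replicate 2 (FN1 -0.076, TSPAN15 0.0067) and replicate 3 (APP 0.018, TSPAN15 0.022). With 1 library left out, log2 fold changes ran from -0.285 to 0.342 (MMP14), -0.0266 to 0.316 (MMP15), -0.226 to 0.121 (TIMP2), -0.763 to 0.241 (TIMP3), -0.385 to 0.0607 (ADAM10), -0.313 to 0.138 (ADAM17), -0.976 to 0.721 (MMP28), -0.235 to 0.0257 (MMP2), -0.0279 to 0.347 (ADAM8), -0.123 to 0.297 (SPINT2), -0.221 to 0.119 (APP), -0.151 to 0.4275 (SDC4), -0.0263 to 0.1097 (FN1), -0.192 to 0.405 (JUNB), -0.667 to 1.04 (FOSL1), -0.622 to 0.552 (TSPAN15), -0.139 to 0.473 (RHBDF1) and -0.0597 to 0.679 (AREG). The replicate 2 differences ran from -0.242 to 0.0597 (MMP1) and from -0.0316 to 0.170 (TIMP1). Of 206 values of member fold changes under an alternative, 187 kept their sign and 19 turned, 13 of these with 1 library left out. Many of the 206 could not turn, because the block, the filters and the fit without trend leave a fold change as it is. Of the 54 values with 1 library left out, 41 kept their sign and 13 turned. The share of all tested genes with a positive fold change was 58.07% with FPKM, 53% with TPM, 51.13% with TMM and 49.91% with quantile scaling. Depth is unknown, so limits of detection cannot be given for MMP7 or other low genes.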

Other observations

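Further inhibitors and activators of these proteases, named after their values were seen, were read as levels only. TIMP4, the remaining TIMP, ranged from 2.24 to 3.04 FPKM over the 6 libraries, and RECK, a membrane-anchored MMP inhibitor, from 1.40 to 2.99 FPKM. FURIN, the proprotein convertase that activates MMP14 and the ADAMs, ranged from 23.5 to 29.3 FPKM, and RHBDF2, the other iRhom, from 7.16 to 11.1 FPKM. The summed FPKM of the 4 MMP members was 0.419, 0.608 and 0.422 times that of the 3 TIMP members in vector replicates 1 to 3 and 0.395, 0.582 and 0.415 times in overexpression replicates 1 to 3, so replicate 2 had the highest ratio in each group.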
